A study of Mus musculus with 6 samples.

Results

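The genes described here are 34 genes of glycolysis and of the cellular response to low oxygen, out of 19349 gene rows in the count tables. They were chosen by symbol, and all 34 were found in every library. They were followed in liver non-parenchymal cells (LNPCs, the liver cells other than hepatocytes) profiled by single-cell RNA sequencing (scRNA-Seq, 10x Genomics Chromium). All 6 libraries came from male C57BL/6J mice, 8 weeks old when bought, with nonalcoholic steatohepatitis (NASH) after a high-fat diet (HFD) of 24 weeks. During the last 8 weeks, 3 were given vehicle (DMSO) and 3 were given ginkgetin, a biflavone of Ginkgo leaves, at 10 mg/kg each day into the stomach. Libraries from mice on a normal diet were not analysed here, so each value is a contrast within diseased livers. Replicate 3 of both groups carried another set of cell barcodes than replicates 1 and 2. The labels give no pooling, and if any library did not come from a separate mouse the p-values measure technical spread only.

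Glycolysis turns glucose into pyruvate. Glucose enters through Slc2a transporters, is trapped by hexokinases, and is carried through aldolase, triosephosphate isomerase, glyceraldehyde-3-phosphate dehydrogenase, phosphoglycerate mutase, enolase and pyruvate kinase. Lactate dehydrogenase turns pyruvate into lactate, and Slc16a transporters export it. When oxygen falls, the prolyl hydroxylases of the Egln family stop marking the transcription factor subunit Hif1a for degradation, and HIF raises many of these same genes through short DNA elements. In macrophages the pathway is known to be drawn on during inflammatory activation. Several of these genes have near-identical processed copies elsewhere in the mouse genome, and how reads were shared among such copies is not given in the sources used here.

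By role, the set holds 2 glucose transporters (Slc2a1, Slc2a3), 16 glycolytic enzymes and 2 regulators of phosphofructokinase (Pfkfb3, Pfkfb4). It also holds 6 genes of pyruvate and lactate handling (Ldha, Ldhb, Pdk1, Pdk4, Slc16a1, Slc16a3), 3 genes of oxygen sensing (Hif1a, Egln1, Egln3) and 5 known HIF targets outside glycolysis (Bnip3, Ankrd37, P4ha1, Adm, Ddit4).

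The promoter windows of 6 members are printed as examples that hold matches, picked among genes named in the contrasts with their matches known. They do not stand for all such genes, since Tpi1, Aldoa and Pkm, which moved alike, held at most 0, 1 and 2 matches in a window and are not shown. A window runs from 250 bases before to 50 bases after a start in RefSeq (GRCm38.p6), and each is shown cut to the stretch that holds its matches. Capitals mark the letters ACGTG or GCGTG, the core that HIF is known to bind, on either strand (as CACGT or CACGC on the strand shown). The palindrome CACGTG counts on both strands and is also the E-box bound by other factors. The stretches are Ldha chr7:46845649-46845853 on the plus strand, Gapdh chr6:125165724-125165837 on the minus strand and Pgam1 chr19:41911686-41911797 on the plus strand. The others are Eno1 chr4:150236468-150236731 on the plus strand, Ddit4 chr10:59951871-59951967 on the minus strand and Ankrd37 chr8:45999842-46000100 on the minus strand.
Ldha: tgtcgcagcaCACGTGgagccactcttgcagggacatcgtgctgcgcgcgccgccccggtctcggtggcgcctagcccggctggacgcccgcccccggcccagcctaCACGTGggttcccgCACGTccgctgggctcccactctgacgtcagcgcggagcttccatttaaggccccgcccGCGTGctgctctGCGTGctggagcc
Gapdh: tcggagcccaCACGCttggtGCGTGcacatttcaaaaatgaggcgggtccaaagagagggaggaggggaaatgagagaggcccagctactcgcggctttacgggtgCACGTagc
Pgam1: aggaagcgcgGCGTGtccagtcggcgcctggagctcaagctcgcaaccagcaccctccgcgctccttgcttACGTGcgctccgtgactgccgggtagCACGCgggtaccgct
Eno1: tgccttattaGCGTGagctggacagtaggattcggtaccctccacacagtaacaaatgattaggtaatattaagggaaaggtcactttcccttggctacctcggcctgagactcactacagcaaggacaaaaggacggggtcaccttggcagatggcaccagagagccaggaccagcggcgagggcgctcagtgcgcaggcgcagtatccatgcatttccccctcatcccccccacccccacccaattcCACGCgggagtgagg
Ddit4: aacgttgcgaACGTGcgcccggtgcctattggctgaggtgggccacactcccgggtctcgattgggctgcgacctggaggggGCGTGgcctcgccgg
Ankrd37: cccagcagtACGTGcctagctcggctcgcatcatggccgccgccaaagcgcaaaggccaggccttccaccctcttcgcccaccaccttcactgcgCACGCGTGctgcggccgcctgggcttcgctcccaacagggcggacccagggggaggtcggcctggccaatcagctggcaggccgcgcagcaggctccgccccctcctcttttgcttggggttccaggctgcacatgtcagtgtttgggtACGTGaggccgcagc

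Ldha held 7 matches, Ankrd37 held 4, Gapdh and Pgam1 held 3 each, and Eno1 and Ddit4 held 2 each. A window with at least 1 match was listed for 31 of the 33 members that RefSeq entries could be found for (93.9%), against 46.7% of 27025 genes. Counted by window, the values were 39 of 46 (84.8%) among members and 43.8% of 32851 overall. The windows were not matched on base composition, and letters alone do not make a binding site. Gpi1 and Tpi1 had no match in the windows searched, and Slc2a3 had no entry.

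Cells were placed in 12 classes from marker genes, without using the 34 genes, and named with "-like" since the names rest on markers alone. Macrophage-like cells made up 24.1% ± 3.44 (SD, n = 3) of kept cells with vehicle and 7.46% ± 7.07 (SD, n = 3) with ginkgetin. The endothelial-like share was 14.3% ± 3.92 with vehicle and 36.6% ± 6.12 with ginkgetin (SD, n = 3 each). UMIs (unique molecular identifiers, the counted RNA molecules) were summed per gene over all cells of a class in a library, and levels are given as CPM, the counts per 1000000 of that sum, scaled by edgeR. A gene is called changed at a Benjamini-Hochberg adjusted p under 0.05 over all genes tested together with a fold over 2, in edgeR's quasi-likelihood test. Library totals ran from 13128697 to 61796882 UMIs, 27544 of 33168 barcodes were kept, and 258 barcodes occurred in more than 1 library.

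In macrophage-like cells, the 7 enzymes Aldoa, Tpi1, Gapdh, Pgam1, Eno1, Pkm and Ldha were lower with ginkgetin by between 2.61-fold (Pkm) and 3.69-fold (Gapdh), and in each of them every ginkgetin library lay below every vehicle library. Of the 34 members, 32 passed the low-count filter (Pdk4 and Egln3 did not), and 10 were called, 8 lower and 2 higher, the latter having passed the filter through the ginkgetin libraries alone. Among all 10447 genes tested, 10.7% were called, 4.95% lower and 5.78% higher. The members' median log2 fold change was -0.72, against 0.01 over all genes tested. In 17 members the highest ginkgetin library was still under the lowest vehicle library, which held for 19.0% of all genes.

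**Figure D1:**
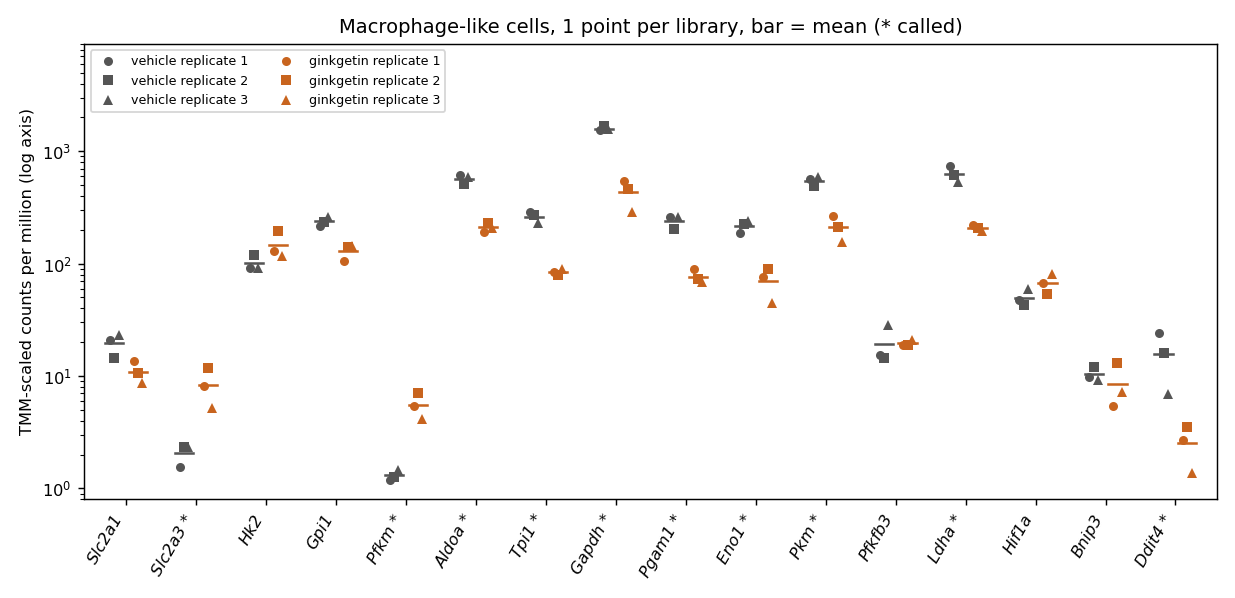
CPM (scaled, log axis) of the named members in macrophage-like cells, 1 point per library for vehicle and for ginkgetin, with a bar at the group mean. The 7 enzymes Aldoa, Tpi1, Gapdh, Pgam1, Eno1, Pkm and Ldha show 2 separate groups of 3 points, while the groups overlap for Hk2, Pfkfb3 and Hif1a. Stars mark called genes.

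Gapdh, which oxidises glyceraldehyde-3-phosphate, read 1533, 1665 and 1564 CPM in the vehicle libraries and 545, 458 and 291 CPM in the ginkgetin libraries. Its log2 fold change was -1.88 ± 0.29 (SE, n = 3 per group, adjusted p = 0.0149). The lowest vehicle library was well above the highest ginkgetin library. Ldha, which makes lactate from pyruvate, read 738, 610.4 and 529 CPM against 219.6, 207 and 195 CPM, a log2 fold change of -1.60 ± 0.21 (SE, n = 3 per group, adjusted p = 0.0137). The 3 ginkgetin libraries lay close together and the groups did not overlap.

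Aldoa, the aldolase that splits fructose-1,6-bisphosphate, read 612, 514 and 585 CPM against 193, 229.7 and 209 CPM. Tpi1, which interconverts the triose phosphates, read 286, 268 and 231 CPM against 84.0, 79.3 and 89.1 CPM. Pgam1, the phosphoglycerate mutase, read 258, 204 and 259 CPM against 89.5, 72.2 and 68.5 CPM. In these 3 genes the groups stood apart with little spread inside either, and the log2 fold changes were -1.44 ± 0.20, -1.63 ± 0.19 and -1.66 ± 0.21 (SE, n = 3 per group, adjusted p = 0.0137, 0.0118 and 0.0127). Eno1, the enolase, read 189, 226 and 239 CPM against 75.9, 88.8 and 44.4 CPM. Pkm, the pyruvate kinase, read 562, 488 and 585 CPM against 263, 211 and 156 CPM. For Eno1 and Pkm ginkgetin replicate 3 was the lowest library, and the log2 fold changes were -1.66 ± 0.29 and -1.38 ± 0.25 (SE, n = 3 per group, adjusted p = 0.0184 and 0.0193). Gpi1, which makes fructose-6-phosphate, passed the p threshold (adjusted p = 0.0375) at a log2 fold change of -0.86, short of the fold.

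The called members that were higher with ginkgetin were a glucose transporter and a phosphofructokinase. Slc2a3, a high-affinity glucose transporter, read 1.56, 2.36 and 2.33 CPM with vehicle and 8.13, 11.8 and 5.16 CPM with ginkgetin, a log2 fold change of 1.93 ± 0.44 (SE, n = 3 per group, adjusted p = 0.0348). Pfkm, the muscle-type phosphofructokinase, read 1.19, 1.27 and 1.46 CPM against 5.42, 7.11 and 4.13 CPM, a log2 fold change of 2.001 ± 0.41 (SE, n = 3 per group, adjusted p = 0.0251). Both rest on few molecules, since the ginkgetin libraries held 3, 10 and 15 UMIs of Slc2a3 and 2, 6 and 12 UMIs of Pfkm. Both also passed the low-count filter (2.25 CPM, unscaled, in 3 libraries) through the ginkgetin libraries alone, 0 of 3 vehicle libraries reaching it, so nothing further is read from these calls. Without that filter neither was called (Slc2a3 1.92, adjusted p = 0.0724, and Pfkm 1.99, adjusted p = 0.0714), and with mixed cells left out Pfkm was not tested. Slc2a1, the broadly expressed glucose transporter, read 21.1, 14.3 and 23.2 CPM against 13.6, 10.7 and 8.60 CPM, and its log2 fold change of -0.93 did not pass (adjusted p = 0.0878). With replicate numbers as a block its adjusted p was 0.0366, still short of the fold.

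Hk2, the inducible hexokinase, read 90.8, 120.2 and 92.2 CPM with vehicle and 130.1, 195 and 117 CPM with ginkgetin (log2 fold change 0.55, adjusted p = 0.19). Its groups overlapped, as vehicle replicate 2 lay above ginkgetin replicate 3. Pfkfb3, which makes the activator of phosphofructokinase, read 15.5, 14.5 and 28.4 CPM against 19.0, 19.0 and 21.0 CPM. Its fitted log2 fold change was 0.02, and the sign turned under several other settings. Hif1a, the oxygen-regulated subunit itself, read 47.5, 43.1 and 59.1 CPM against 67.8, 53.3 and 80.5 CPM (log2 fold change 0.44, adjusted p = 0.22). None of the 2 tested oxygen-sensing genes, nor the regulators of phosphofructokinase, was called.

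Among the HIF targets outside glycolysis, 1 of 5 was called. Ddit4, an inhibitor of mTORC1 signalling, read 24.01, 16.1 and 6.93 CPM with vehicle and 2.71, 3.55 and 1.38 CPM with ginkgetin, a log2 fold change of -2.86 ± 0.67 (SE, n = 3 per group, adjusted p = 0.0369). The ginkgetin libraries held 1, 3 and 4 UMIs of it. It was not called with mixed cells left out (-2.21, adjusted p = 0.109), with no cell filter (-2.36, adjusted p = 0.0507), in limma-voom (-2.45, adjusted p = 0.144) or with classes assigned cell by cell (-2.36, adjusted p = 0.154). Ankrd37 read 11.7, 9.06 and 8.04 CPM against 0, 4.74 and 1.03 CPM, a log2 fold change of -2.33 that did not pass (adjusted p = 0.0611) and that passed with replicate numbers as a block (adjusted p = 0.0137). Bnip3, a mitophagy receptor, read 9.81, 11.96 and 9.26 CPM against 5.42, 13.03 and 7.23 CPM, with overlapping groups. Adm, the vasodilator peptide adrenomedullin, read 3.76, 7.25 and 9.26 CPM against 5.42, 14.2 and 11.7 CPM (log2 fold change 0.72, adjusted p = 0.32). Pdk4, which was not tested, held 7, 3 and 5 UMIs with vehicle and 0, 1 and 6 UMIs with ginkgetin. With the replicate block 13 members were called, Ldhb, Slc16a3 and Ankrd37 besides the 10, where 16.2% of all genes were called. With the barcode set as a block 13 were called too, but Ldhb was not among them (log2 fold change -1.46, adjusted p = 0.0804) and Slc2a1 was (-1.04, adjusted p = 0.0307).

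The macrophage-like sums of the groups differed in other measures too. Vehicle sums came from 1282, 766 and 1155 cells with median totals of 9530, 7616 and 16190 UMIs, and ginkgetin sums from 107, 256 and 569 cells with 2381, 2071 and 2402 UMIs. A lower level per cell and fewer cells with a high level cannot be told apart in such sums. Different clusters held most of the class, clusters 6, 8, 11 and 22 with vehicle and clusters 17 and 27 with ginkgetin. Endothelial markers summed to between 195.6 and 218 CPM (unscaled) with vehicle and between 994 and 1875 CPM with ginkgetin, and 8 of the 10 endothelial markers were called higher, none of them at 0. B cell markers stood at 80.8 to 85.5 against 148 to 304 CPM with 3 of 8 called higher, T cell markers at 5.995 to 14.6 against 44.6 to 82.7 CPM, and cholangiocyte markers at 276 to 665 against 69.6 to 207 CPM. Macrophage markers themselves summed to 22350 to 25660 against 18760 to 26900 CPM. Of 10 genes of the stress that tissue dissociation brings, 2 were called, Atf3 (log2 fold change -2.15) and Hspa1a (-1.34), both lower with ginkgetin. The part of depth, other cell types or dissociation in the result was not tested.

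Replicates 1 and 2 and replicate 3, the barcode sets, gave the same direction for the 8 genes called lower when taken apart. The log2 ratio of ginkgetin over vehicle was -1.67 and -2.43 for Gapdh, -1.66 and -1.44 for Ldha and -1.15 and -1.90 for Pkm. These ratios are values without a test. A fit of replicates 1 and 2 alone, with 2 libraries per group, called the same 10 members, and replicate 3 alone allows no test. The calls were lost when single libraries were left out: 0 members were called when vehicle replicate 1, then vehicle replicate 2, then ginkgetin replicate 2 was removed (13, 14 and 15 of them at an unadjusted p under 0.05), and no gene of the whole table was called in those fits either. Without ginkgetin replicate 1 there were 6, without ginkgetin replicate 3 there were 7 and without vehicle replicate 3 there were 9. When cells were kept by 250 to 5000 UMIs in place of genes, vehicle replicate 3 kept 9 macrophage-like cells and dropped out, and 0 of 22 members were called (11 at an unadjusted p under 0.05). Gapdh then stood at a log2 fold change of -1.76 (adjusted p = 0.0926), Tpi1 at -1.27 and Ldha at -0.92. Scaling by library totals alone moved the median of all genes to 0.51 and the share of called genes that were higher from 53.9% to 90.5%. On that scale 9 members were called, Hk2 among them at 1.01, while Aldoa (-0.96) and Pkm (-0.95) fell short of the fold.

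Of 47 further genes of glycolysis, the pentose phosphate branch and the hypoxia response, 35 were tested in macrophage-like cells and 4 were called (11.4%), a share close to the 10.7% of all genes tested. Vegfa, the angiogenic HIF target, read 8.98, 16.5 and 19.5 CPM with vehicle and 2.71, 2.37 and 2.75 CPM with ginkgetin (log2 fold change -2.496). Mpc1, which carries pyruvate into mitochondria, read 107, 107 and 93.8 CPM against 46.1, 39.1 and 27.9 CPM (-1.49). Epas1, the HIF-2 alpha subunit, and Mxi1, a MYC antagonist, were higher (2.33 and 1.39). Epas1 is abundant in endothelial cells, and it read 442 to 770.4 CPM over the endothelial-like sums against 4.95 to 54.5 CPM over the macrophage-like sums.

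Cells of the macrophage-like clusters with at least 1 UMI of Clec4f, the Kupffer cell lectin, were tested on their own. With 697, 423 and 511 such cells for vehicle and 94, 215 and 522 for ginkgetin, 9 of 31 members were called and all 9 were lower, where 9.43% of 9353 genes were called. They were the same 7 enzymes, together with Ddit4 and Ankrd37. Gapdh read 1453, 1512 and 1569 CPM against 371, 449 and 271 CPM (log2 fold change -2.06 ± 0.26, SE, n = 3 per group, adjusted p = 0.0131). Ankrd37, at 12.97, 10.4 and 10.4 CPM against 0, 4.91 and 0.809 CPM, was called here (log2 fold change -2.73, adjusted p = 0.0462). With no gene filter Ddit4 (-2.96, adjusted p = 0.0514) and Ankrd37 (-2.70, adjusted p = 0.0809) were both lost. Classes assigned cell by cell lost both as well (-2.69, adjusted p = 0.0868, and -2.32, adjusted p = 0.0722). With mixed cells left out Ddit4 was lost (-2.61, adjusted p = 0.1) and Ankrd37 was not tested. The 7 enzymes were called in each of these settings, and Ddit4 was also lost in limma-voom. With the replicate block 12 members were called, where 15.4% of genes were, with Slc2a1 (-1.27, adjusted p = 0.0145), Pfkl (-1.45, adjusted p = 0.0418) and Slc16a3 (-1.77, adjusted p = 0.0086) in addition. The barcode-set block called the same 12 and Slc2a3 (1.67, adjusted p = 0.0373), which had passed the filter through the ginkgetin libraries alone. Of the 47 further genes 34 were tested and 5 were called, Mpc1 and Vegfa lower and Epas1, Mxi1 and Ndrg1 higher. Vegfa (-2.19) passed the filter here through the vehicle libraries alone and Ndrg1 (2.21), a HIF target, through the ginkgetin libraries alone. Endothelial markers summed to 286.8 to 317.6 CPM (unscaled) with vehicle and 1172 to 1873 CPM with ginkgetin in these sums, 8 of 10 called higher, and Atf3 (-1.94) and Hspa1a (-1.16) of the stress genes were called lower. The Clec4f-positive cells had median totals of 10250, 6908 and 18760 UMIs with vehicle and 2223, 1984 and 2352 UMIs with ginkgetin, so depth differs between the groups here too. The part of depth, of these markers and of the stress genes in the result was not tested. Scaled by library totals alone, 88.0% of called genes were higher in place of 50.1%, and 9 members were called, with Slc2a3 in and Ankrd37 out. Cells of these clusters with no Clec4f UMI gave 0 called members of 27 and 0 called genes of 8372 (10 members and 1335 genes at an unadjusted p under 0.05). With the replicate block 8 of these 27 were called, where 4.92% of genes were. Slc2a3 and Hk2 were higher, and Aldoa, Tpi1, Gapdh, Pgam1, Eno1 and Ldha were lower. The ginkgetin sums held only 13, 41 and 47 cells, and Slc2a3, with 1, 4 and 5 UMIs there, passed the filter through them alone. In the same fit 4 of the 10 dissociation stress genes were called, Atf3 (-1.56) and Hspa1a (-1.34) lower and Fosb (1.11) and Egr1 (1.34) higher, and Epas1 stood at 2.30 (adjusted p = 0.0296). Endothelial markers summed to 78.8 to 112.5 CPM (unscaled) with vehicle and 289 to 1880 CPM with ginkgetin, 7 of 8 called higher with the block. Macrophage markers summed to 17370 to 19610 against 11770 to 14890 CPM, 2 of 8 called lower with the block. The sums of monocyte, dendritic, T cell, B cell and plasma cell markers were higher with ginkgetin, without overlap. Their part in the member calls was not tested. The barcode-set block and DESeq2 called 9 members each, Pkm in addition, and limma-voom called 0. Leaving out vehicle replicate 1, vehicle replicate 2 or ginkgetin replicate 2 took the Clec4f-positive count to 0, and leaving out ginkgetin replicate 3 took it to 4.

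In endothelial-like cells the same enzymes were fitted lower by smaller amounts and none was called. Of 30 members tested, 0 were called (14 at an unadjusted p under 0.05, of which 13 were lower). DESeq2 called 4 and limma-voom called 0. Over all 10294 genes, 0.476% were called, and the median log2 fold change was -0.58 over the members and close to 0 over all genes. Gapdh read 424, 471 and 400.5 CPM with vehicle and 273, 279.6 and 223 CPM with ginkgetin (log2 fold change -0.74 ± 0.18, SE, n = 3 per group, adjusted p = 0.15). Ldha read 426, 300.4 and 266 CPM against 223, 204 and 164 CPM (-0.75 ± 0.24, adjusted p = 0.25), and Pkm read 303, 288 and 358 CPM against 208, 233 and 205 CPM (-0.56 ± 0.17, adjusted p = 0.23). Though uncalled, these groups did not overlap. Such a gap, with ginkgetin lower, was seen in 15 members and in 9.56% of all genes.

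Pairing the replicates by number called 4 of the 30 members, all lower, where 4.36% of genes were called. Ankrd37 read 25.1, 18.7 and 20.2 CPM with vehicle and 4.09, 3.51 and 0.746 CPM with ginkgetin (log2 fold change -3.04, adjusted p = 0.103, with the block -3.21 and 0.0046). Slc2a1 read 14.1, 4.44 and 14.98 CPM against 1.86, 2.47 and 1.87 CPM (-2.46, adjusted p = 0.0991, with the block -2.42 and 0.0132). Vehicle replicate 2 was the low library of its group for Slc2a1, and it was still above every ginkgetin library. Slc2a1 passed the filter of this class through the vehicle libraries alone. Hk2 read 12.7, 17.8 and 6.57 CPM against 2.98, 5.08 and 1.96 CPM (-1.83, adjusted p = 0.2, with the block -1.85 and 0.0076). It reached the cutoff of that filter in 3 vehicle libraries and 1 ginkgetin library. Slc16a1, a lactate transporter, read 19.1, 30.2 and 27.1 CPM against 9.67, 11.8 and 13.7 CPM (-1.09, adjusted p = 0.13, with the block -1.09 and 0.009). Macrophage markers summed to 242 to 416 CPM (unscaled) in the vehicle sums and 73.0 to 178.5 CPM in the ginkgetin sums, 0 of 9 tested called. With the block 4 of the 10 dissociation stress genes were called as well. Of these, Hspa1a (-2.83), Hspa1b (-3.06) and Atf3 (-1.60) were lower with groups that did not overlap, and Fosb (1.96) was higher; without the block none was called. The part of either in these values was not tested, and Hk2 was highest in the macrophage-like class of all 12.

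Pfkfb3 was the member that lay higher in every ginkgetin library of this class, at 18.7, 18.7 and 20.0 CPM against 26.8, 27.3 and 27.9 CPM, with a log2 fold change of 0.51 ± 0.14 (SE, n = 3 per group, adjusted p = 0.19, 0.0716 with the block). Its product is known for driving glycolysis in sprouting endothelium. Ddit4 read 79.5, 71.1 and 90.1 CPM against 39.1, 32.5 and 53.9 CPM (-0.94, adjusted p = 0.15), a gap with no overlap. Pdk4, which restrains pyruvate oxidation, read 81.3, 65.8 and 75.7 CPM against 50.6, 23.8 and 44.1 CPM (-0.92, adjusted p = 0.25). Hif1a read 117, 102 and 119.6 CPM against 95.6, 92.9 and 92.5 CPM (-0.27, adjusted p = 0.47). Bnip3 read 62.6, 41.8 and 23.1 CPM against 26.0, 26.0 and 11.8 CPM, and the groups overlapped (-1.01, adjusted p = 0.41, with the block -0.98 and 0.009). Next to Pfkfb3, the highest fitted values were those of Egln1 (0.46) and Eno3 (0.40), neither called. Of the 47 further pathway genes, 36 were tested and 1 was called, where 0.476% of all genes were. Hilpda, a lipid-droplet protein that HIF is known to raise, read 65.4, 56.0 and 70.7 CPM with vehicle and 20.8, 19.0 and 12.3 CPM with ginkgetin (log2 fold change -1.90, adjusted p = 0.044). The vehicle clusters were mainly 4 and 18 and the ginkgetin clusters mainly 0 and 7, from 1070, 499 and 415 against 1216, 2999 and 1147 cells. Cluster 18, with Vwf, Fbln2 and Adgrg6 among its leading genes, occurred in replicate 3 alone. It gave 386 of the 415 vehicle cells and 147 of the 1147 ginkgetin cells there. In replicates 1 and 2 a cluster led by such genes (cluster 14) stayed unnamed and lies outside the class. The part of this makeup in the values of the class was not tested.

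The difference of the contrasts between the classes was tested with a class-by-group term, in which 8.77% of 11511 genes had an adjusted p under 0.05, and 12 members did. Pdk4 entered that fit only through its endothelial-like counts, having failed the macrophage-like filter with at most 7 UMIs in any sum, and its difference is not read as a result. Slc2a3 and Slc2a1 are set aside as well, since Slc2a3 entered the macrophage-like filter through ginkgetin alone and Slc2a1 the endothelial-like one through vehicle alone. Among genes over the low-count cutoff in both groups of both classes, in at least 1 library of each, 7.83% of 9103 passed, and 9 of 25 members. For Gapdh the macrophage-like log2 fold change was lower than the endothelial-like one by 1.21 ± 0.26 (SE, adjusted p = 0.0163), and for Pgam1 the difference was -1.34 ± 0.23 (adjusted p = 0.0055). Hk2 had the opposite sign in the classes, and its difference was 2.36 ± 0.35 (adjusted p = 0.0029). In endothelial-like cells Hk2 reached the cutoff in 3 vehicle libraries and 1 ginkgetin library, so its difference is not read further. The other members among the 9 were Gpi1, Aldoa, Tpi1, Eno1, Pkm and Ldha.

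**Figure D2:**
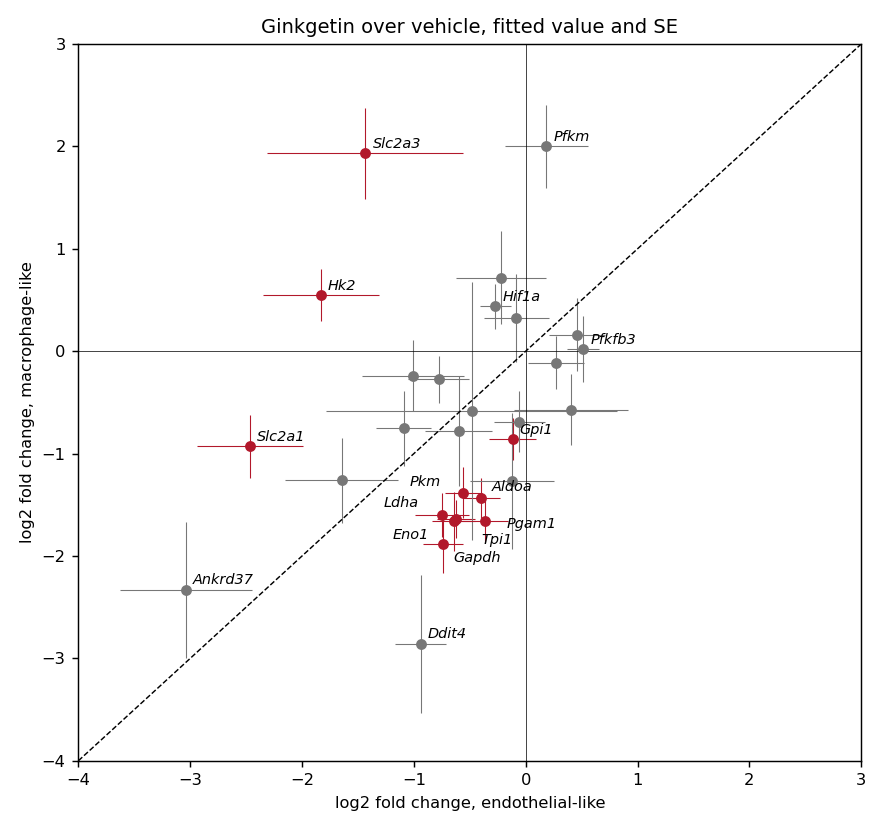
Log2 fold change, ginkgetin over vehicle, of each member tested in both classes, endothelial-like on the x axis and macrophage-like on the y axis, with bars of 1 SE and the line of equal change dashed. Red points passed the class-by-group test, with Gapdh, Ldha and the enzymes near them below the line and Hk2 above it, as are Slc2a1 and Slc2a3, which passed a filter through 1 group alone.

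Across all 12 classes, Gpi1, Aldoa, Gapdh, Pgam1 and Ldha were fitted lower with ginkgetin in 12 of 12, and on plain CPM the ginkgetin mean was lower in all 12 for these genes except Gpi1 (10 of 12). Pkm was fitted lower in 11 of 11 classes tested, and Pfkl and Ddit4 in 10 of 10. Egln1, the main oxygen sensor, was fitted lower in 2 of 11, and Hif1a in 5 of 11. The summed plain CPM of the 34 members had a lower ginkgetin mean in 12 of 12 classes, and in 10 the groups did not overlap, endothelial-like and plasma cell-like cells being the exceptions. That sum weighs abundant genes most, and Gapdh alone gave 908 of 2929 CPM in T cell-like cells of vehicle replicate 1. It does not show that the 34 members fell together. On plain CPM the ginkgetin mean was lower in 3 of 11 classes for Hif1a and in 3 of 11 for Egln1. In monocyte-like cells the sum was 5889 ± 205 CPM against 3260 ± 529 (SD, n = 3 each), and in macrophage-like cells 4204 ± 355 against 2346 ± 133 (SD, n = 3 each). Since all classes come from the same 6 libraries, these counts are not independent of one another. Plasmacytoid dendritic-like cells rest on 2 libraries per group, with no such cells in replicate 3. Hepatocyte-like cells rest on 3 vehicle and 2 ginkgetin libraries, and ginkgetin replicate 2 held 11 of these cells.

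**Figure D3:**
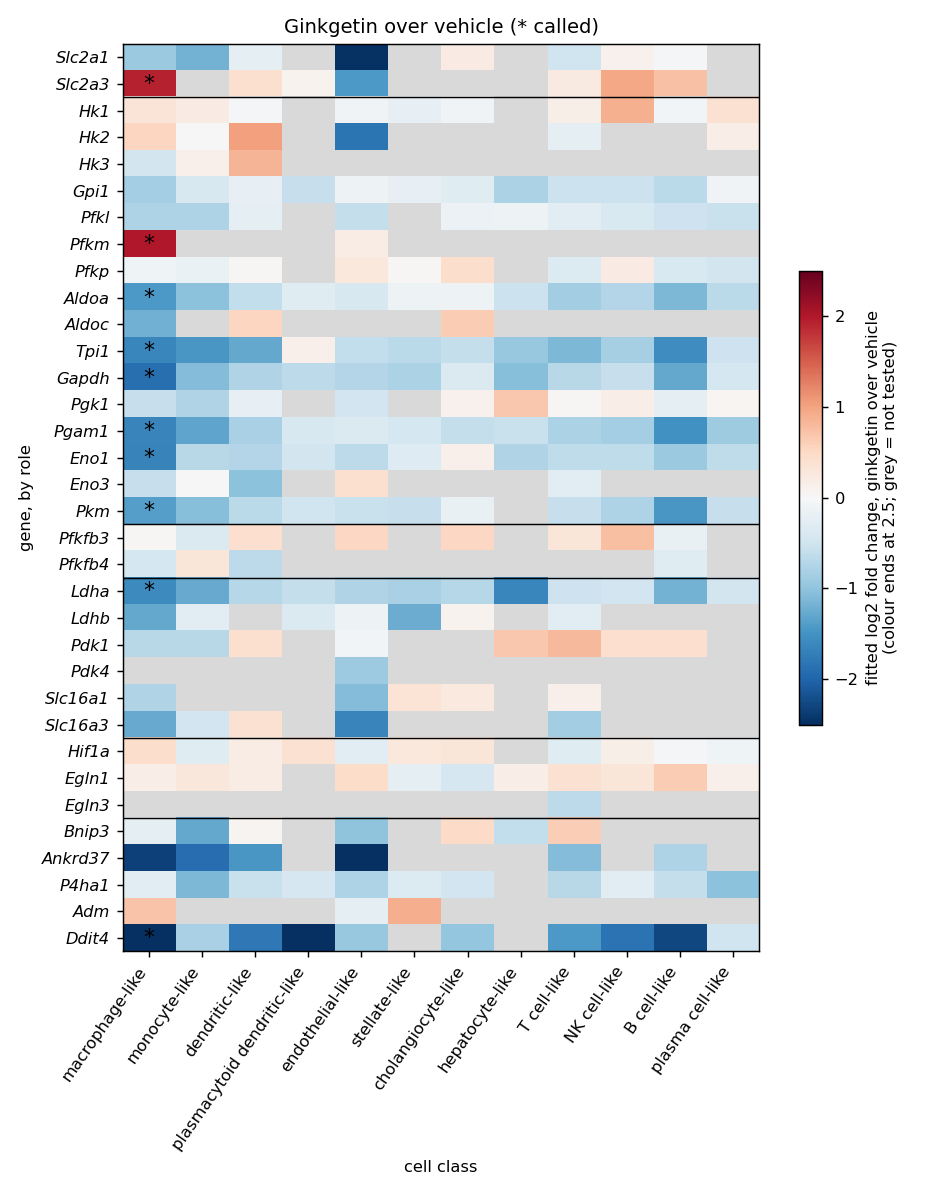
Log2 fold change, ginkgetin over vehicle, of each member (rows) in each cell class (columns), blue lower and red higher, with grey where a gene was not tested. The rows of the 7 enzymes Aldoa, Tpi1, Gapdh, Pgam1, Eno1, Pkm and Ldha are blue in nearly every column, and Hk2 and Slc2a3 are red in the macrophage-like column and blue in the endothelial-like one. Stars mark called genes.

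In the 10 classes other than macrophage-like and endothelial-like, 0 of 205 member and class pairs were called (65 at an unadjusted p under 0.05), where 0.0576% of 67719 gene and class pairs were. DESeq2 called 16, where it called 0.858% of all pairs, and limma-voom called 0. With replicate numbers as a block 22 were called, 21 lower and 1 higher, where 1.69% of pairs were. Monocyte-like cells held 9 of them and B cell-like cells held 7. Dissociation stress genes moved in these classes too. Without the block Jun (-2.83), Hspa1a (-5.28) and Hspa1b (-3.41) were called lower in plasmacytoid dendritic-like cells, and with it 25 of 96 stress gene and class pairs were called, 23 of them lower. With the block Hspa1a was called lower in 8 classes, at -3.46 in monocyte-like and -4.22 in B cell-like cells. Endothelial markers summed to 52.7 to 79.5 CPM (unscaled) with vehicle against 163.5 to 889.5 CPM with ginkgetin in monocyte-like cells and 120.8 to 165.8 against 278 to 1097 CPM in B cell-like cells, with 9 of 9 and 6 of 8 called higher with the block. Macrophage markers in B cell-like cells stood at 236.8 to 266.1 against 72.4 to 128.8 CPM, 4 of 6 called lower with the block. The part of stress genes and other cell types in the block calls was not tested. In monocyte-like cells Ankrd37 read 57.0, 40.4 and 38.0 CPM against 19.5, 12.4 and 7.02 CPM (log2 fold change -1.90, adjusted p = 0.16, with the block 0.0081). P4ha1, a collagen prolyl hydroxylase subunit, read 77.3, 67.2 and 72.7 CPM against 46.1, 23.7 and 32.3 CPM (-1.12, adjusted p = 0.19, with the block 0.0232). In B cell-like cells Pkm read 243, 233 and 187 CPM against 83.1, 82.2 and 77.8 CPM (-1.45, adjusted p = 0.24, with the block 0.0059). None of these groups overlapped.

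Levels across classes are a description without a test, as medians of plain CPM over libraries with at least 10 cells of the class. Monocyte-like cells were highest for 7 members, endothelial-like and hepatocyte-like cells for 6 each, and cholangiocyte-like cells for 4. Macrophage-like cells were highest for 2, both hexokinases. By name, Gpi1, Aldoa, Pgk1, Eno3, Pkm, Pfkfb4 and Slc16a3 led in monocyte-like cells, and Pfkm, Ldhb, Pdk4, Hif1a, Egln1 and Ddit4 in endothelial-like cells. Tpi1, Gapdh, Pgam1, Ldha, Egln3 and Bnip3 led in hepatocyte-like cells, Slc2a1, Pfkl, Aldoc and Eno1 in cholangiocyte-like cells, and Slc16a1, P4ha1 and Adm in stellate-like cells. Pfkp and Pfkfb3 led in dendritic-like cells, Slc2a3 and Hk1 in NK cell-like cells, Pdk1 in T cell-like cells and Ankrd37 in B cell-like cells. Hepatocyte-like cells were also the lowest class, or tied at 0, for 15 members, among them Slc2a1, Hk1, Aldoa and Pkm. Plasma cell-like cells were lowest for 6 (Gpi1, Eno3, Ldha, Hif1a, Egln3 and Bnip3). B cell-like cells were lowest for 3 (Pgam1, Ldhb and Pdk4) and stellate-like cells for 3 (Pgk1, Pdk1 and Ankrd37). Endothelial-like cells were lowest for Gapdh and Eno1, cholangiocyte-like cells for Hk2 and Slc16a3, plasmacytoid dendritic-like cells for Tpi1 and Slc16a1, and NK cell-like cells for Aldoc. Hk3 stood at 74.0 CPM (50.7 to 83.4) in macrophage-like cells, apart from monocyte-like cells at 21.6 CPM (5.90 to 33.3). Hk2 stood at 116 CPM (74.4 to 224) against 75.3 CPM (54.9 to 97.0), ranges that overlap.

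**Figure D4:**
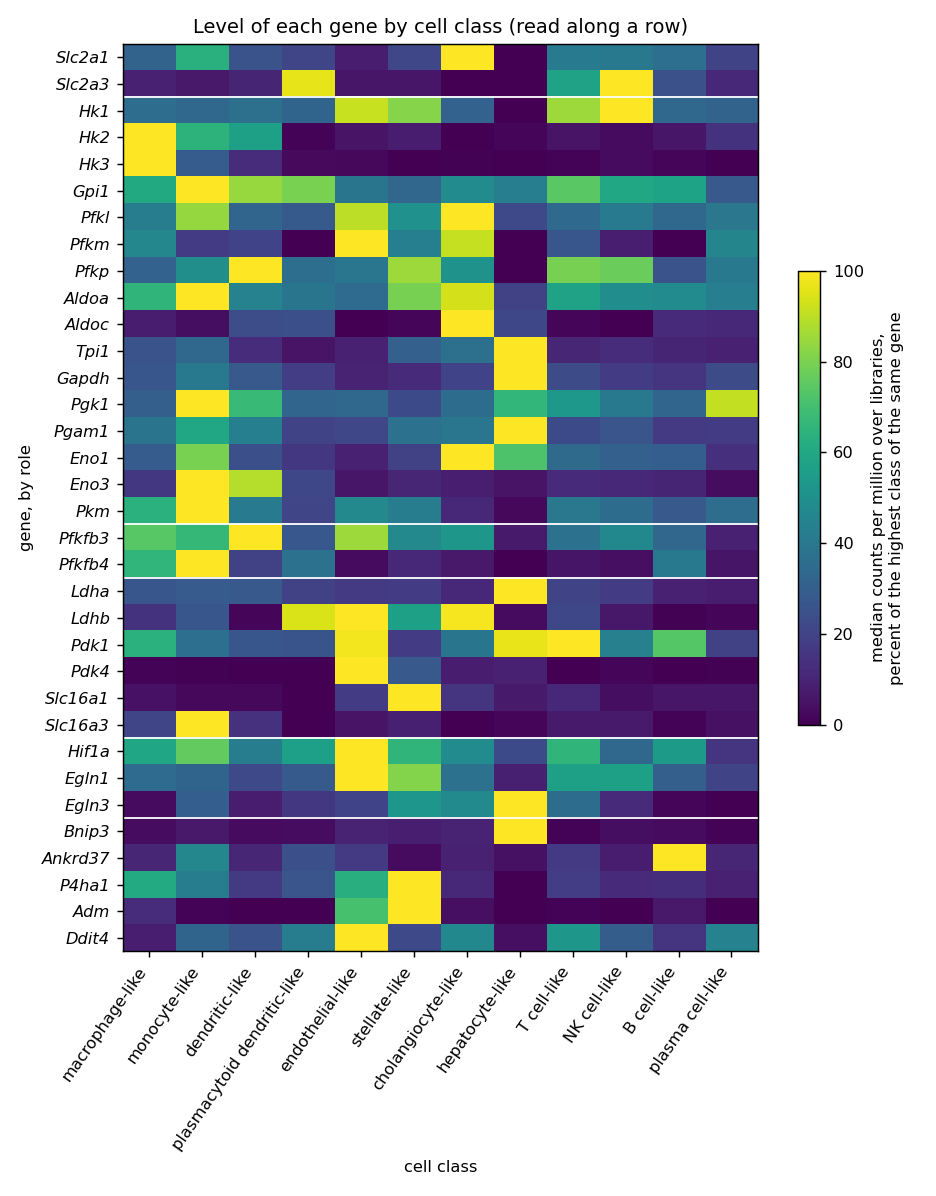
Median plain CPM over libraries of each member (rows) in each cell class (columns), as a percentage of the highest class of the same gene, so that colours are read along a row. Bright cells mark the class with the highest level, such as Hk3 in macrophage-like and Pdk4 in endothelial-like cells.

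Only 6 members had a highest class whose library range lay apart from that of the second class. Besides Hk3, Aldoc stood at 45.6 CPM (30.5 to 71.2) in cholangiocyte-like cells, and Pdk4 at 54.7 CPM (23.7 to 84.3) in endothelial-like cells against 15.2 CPM (0 to 19.1) in stellate-like cells. Slc16a1 led in stellate-like cells at 93.5 CPM (38.3 to 399), and Slc16a3, the lactate exporter of glycolytic cells, in monocyte-like cells at 55.4 CPM (39.6 to 129) against 11.5 CPM (2.79 to 20.7) in macrophage-like cells. Bnip3 led in hepatocyte-like cells at 265 CPM (194 to 350.0). Ddit4 was highest in endothelial-like cells at 62.9 CPM (32.3 to 100.4) and Ankrd37 in B cell-like cells at 58.1 CPM (20.9 to 69.9), and neither lay apart from the second class.

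The macrophage-like cells of the vehicle libraries were split by at least 1 UMI of Trem2 or Gpnmb, markers of NASH-associated macrophages (NAMs). Positive cells numbered 1153, 663 and 1092 and negative cells 129, 103 and 63, and their median totals were 9799, 8062 and 16490 against 6395, 4393 and 8271 UMIs, so depth moves with the gate. In a fit with the library as a block, 9.05% of 9607 genes and 6 of 30 members had an adjusted p under 0.05. Ldhb, the lactate dehydrogenase subunit that favours pyruvate, read 13.4, 15.4 and 22.3 CPM in positive and 4.20, 1.89 and 1.34 CPM in negative cells (log2 fold change 2.63 ± 0.45, SE, n = 3 libraries, adjusted p = 0.000112). The negative sums held 4, 1 and 1 UMIs of it. The value was smaller with classes assigned cell by cell (1.27, adjusted p = 0.00188), with no cell filter (1.88), with mixed cells left out (1.94) and without vehicle replicate 3 (2.05), larger without vehicle replicate 1 (3.62), and Ldhb was called in each of these. Of the further genes Vegfa was called, higher in positive cells (3.27). Adm went the other way, at 3.09, 5.24 and 7.03 CPM against 5.25, 18.9 and 34.9 CPM (-1.85 ± 0.35, SE, n = 3 libraries, adjusted p = 0.000418). Without vehicle replicate 3 the value for Adm was -1.39 and did not pass (adjusted p = 0.0537), and with classes assigned cell by cell it was -0.88 (adjusted p = 0.115), while Eno3 (-1.93) and Ddit4 (-1.20) were called lower there. Pkm (0.40) and Gpi1 (0.38) were higher, and Hk3 (-0.53) and Slc16a3 (-0.89) lower, in positive cells of all 3 libraries. Of the 10 dissociation stress genes 6 had an adjusted p under 0.05, Atf3 (1.18), Fosb (0.68), Fos (0.39), Jun (0.37) and Junb (0.31) higher and Hspa1b (-0.33) lower in positive cells. The part of these genes and of depth in the gate differences was not tested. Without the library block no member passed (3 at an unadjusted p under 0.05).

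**Figure D5:**
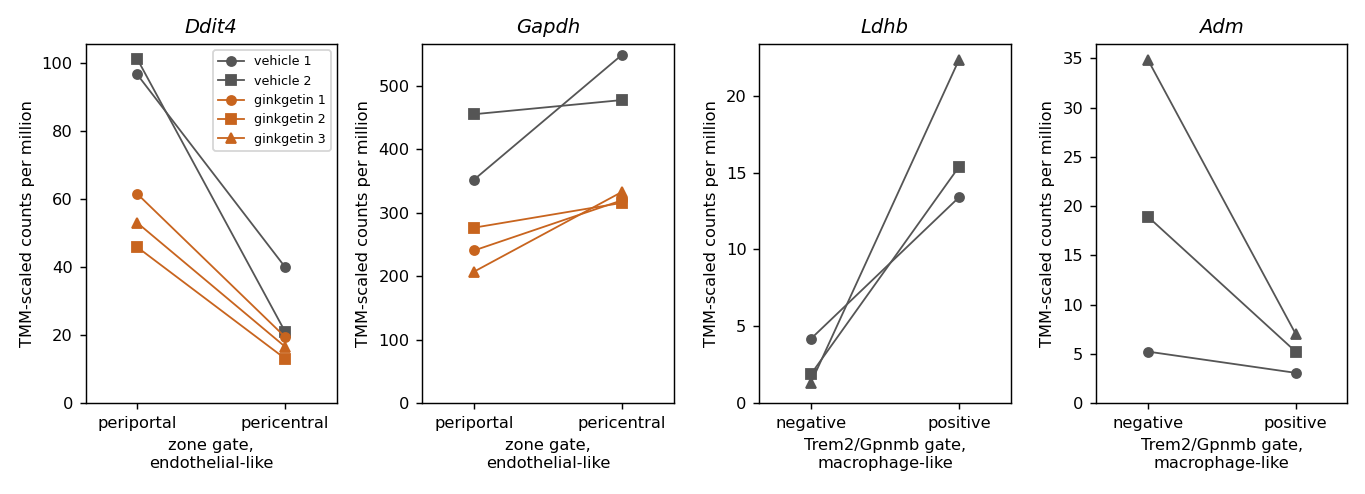
CPM of Ldhb and Adm in Trem2- or Gpnmb-positive and negative macrophage-like cells of the vehicle libraries, and of Ddit4 and Gapdh in pericentral and periportal gates of endothelial-like cells, with a line joining the gates of each library. From periportal to pericentral the lines fall for Ddit4 and rise for Gapdh, and from negative to positive they rise for Ldhb and fall for Adm, in every library shown.

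Endothelial-like cells were also split along the sinusoid, in which oxygen is known to fall from the portal to the central end. Cells with no Vwf UMI were placed in a pericentral gate by a UMI of Wnt2, Rspo3, Wnt9b, Kit or Cdh13 and none of Dll4, Efnb2, Efnb1, Ltbp4 or Adgrg6, and in a periportal gate by the reverse, in the 5 libraries with at least 10 cells in both (vehicle replicate 3 had 4 pericentral cells). With the library as a block, 4.99% of 6720 genes and 2 of 21 members had an adjusted p under 0.05. Ddit4 was lower in pericentral cells of 5 of 5 libraries, at 40.1, 21.1, 19.5, 13.2 and 16.6 CPM against 96.7, 101, 61.6, 45.9 and 53.1 CPM, in the order vehicle 1 and 2 and ginkgetin 1 to 3. Its log2 fold change was -1.63 ± 0.22 (SE, n = 5 libraries, adjusted p = 4.7e-06). Gapdh was higher in pericentral cells of 5 of 5 libraries (0.37 ± 0.10, SE, adjusted p = 0.0252). Ginkgetin replicate 3 had 17 pericentral cells with a median of 1517 UMIs against 6746 in its periportal gate, and 1 UMI of Ddit4. All 10 dissociation stress genes were fitted lower in pericentral cells, with a median log2 fold change of -0.40. Of these, Fos (-0.72), Junb (-0.46) and Hspa1a (-0.46) had an adjusted p under 0.05. Their part in the values of Ddit4 and Gapdh was not tested. Ddit4 was called without each library in turn. The gate difference of neither gene was shown to depend on the group (adjusted p = 0.9955 for both).

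Pgk1, which makes the first ATP of the pathway, followed the barcode set. In all cells it read 11.7 to 25.9 CPM in replicates 1 and 2 and 119 to 171.0 CPM in replicate 3, and replicate 3 lay above in 11 of 11 classes with both sets. In macrophage-like cells it read 14.3, 13.95 and 189.7 CPM with vehicle and 8.13, 10.7 and 112 CPM with ginkgetin. Its log2 fold change of -0.58 did not pass (adjusted p = 0.81), and with the replicate block it was -0.69 (adjusted p = 0.0386), under the fold. Within replicates 1 and 2 the log2 ratio was -0.59, and in replicate 3 it was -0.76.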

How the data were processed

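Single cells of 6 liver preparations, 3 per treatment, were analysed from UMI counts per gene and barcode, deposited by the authors without normalization. The labels name GRCm38 and mm10, and the aligner is not given in the sources used here. The labels' extraction text names a kit for bulk mRNA, whereas the methods and the barcodes are those of the 10x system. The methods state a range of 250 to 5000 UMIs and under 5% mitochondrial reads, which applied to UMIs kept 16821 barcodes and applied to genes detected kept 27544. The latter reading was used and the former was an alternative. Barcodes shared by libraries were kept as separate cells, doublets were not removed, and leaving out cells with at least 3 markers of another class was an alternative.

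Cells were clustered in scanpy 1.11.5 (counts scaled to 10000, 2000 variable genes less the members and further pathway genes, 30 components, 15 neighbours, Leiden resolution 1). A cluster was named when at least 3 markers of a class had a UMI in 25% of its cells at 2 times the mean of other cells (pseudocount 0.1). Of all kept cells 1294 stayed unnamed. The unnamed shares were 2.22% to 5.37% of a library with vehicle and 2.72% to 6.16% with ginkgetin. Counts were summed per class and library (at least 10 cells), scaled by TMM, filtered by filterByExpr and tested in edgeR 4.0.16 (R 4.3.3) with quasi-likelihood tests, and DESeq2 1.42.0 and limma 3.58.1 were alternatives. A self-test on simulated counts with changed genes was run after the main values had been seen. Members, lists and thresholds were chosen with earlier results of these data known. Genes were named by role: called members and 8 chosen members with the value in every library, the 3 largest and 3 smallest fitted values in macrophage-like and endothelial-like cells, and members passing in the gates. Further genes, Vegfa, Mpc1, Epas1, Mxi1, Ndrg1 and Hilpda, are those called in their list. The class-by-group term and the scaling by totals alone were added after seeing the data.

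Samples were paired by the replicate numbers of the labels, not by a stated litter or day. The deviations of same-numbered samples from their group means correlated at 0.348 to 0.912 in 30 of 30 class and number pairs. All were over the threshold of 0.1. Deviations within a group cancel out, so a shift shared by both replicate 3 libraries, the separate barcode set, raises every such correlation. The check therefore cannot show how the remaining replicates pair across groups. Calls made with the replicate block rest on that numbering. Libraries held 13128697 to 61796882 UMIs, and the errors given are standard errors of the fits or SDs between libraries.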

Additional observations from a re-analysis of the deposited data

Results flagged for a closer look

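For 12 of the 34 members the ginkgetin against vehicle contrast differed between macrophage-like and endothelial-like cells, in 1 edgeR fit over both classes with the library as a block and a class-by-group term (adjusted over 11511 genes). The values are the macrophage-like log2 fold change less the endothelial-like one. The enzymes were more strongly lower in macrophage-like cells: Pgam1 by -1.34, Gapdh by -1.21, Eno1 by -1.15, Aldoa by -1.06, Tpi1 by -1.02, Pkm by -0.89, Ldha by -0.86 and Gpi1 by -0.77. Hk2 differed the other way, by 2.36. In endothelial-like cells it reached the low-count cutoff in 3 vehicle libraries and 1 ginkgetin library, so this value is not read further. Slc2a3 (3.25) passed the macrophage-like low-count filter through the ginkgetin libraries alone and Slc2a1 (1.48) the endothelial-like one through the vehicle libraries alone, so nothing is read from these values. Pdk4 stood at 2.73, but it failed the macrophage-like low-count filter, entered the fit only through its endothelial-like counts and held 0, 1 and 6 UMIs in the ginkgetin macrophage-like sums, and is set aside likewise. The count among the 25 members over the cutoff in both groups of both classes was 9. Endothelial markers in the macrophage-like sums were higher with ginkgetin and macrophage markers in the endothelial-like sums were lower, and their part in these differences was not tested.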

How the results depend on the processing

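The number of called members moved with the samples and the filter. In macrophage-like cells it was 10 as reported, 0 with cells kept by UMIs, 2 with classes assigned cell by cell, 8 with no gene filter (Slc2a3 and Pfkm lost), 8 with mixed cells left out (Ddit4 lost and Pfkm not tested), and 0 to 9 without single libraries. It was 10 with replicates 1 and 2 only and 11 with DESeq2 (Ankrd37 in addition). With limma-voom and with no cell filter Ankrd37 took the place of Ddit4. In Clec4f-positive cells it was 9, 0 with cells kept by UMIs, 7 with no gene filter or with classes per cell (Ddit4 and Ankrd37 lost), 7 with mixed cells left out (Ddit4 lost and Ankrd37 not tested), and 0 to 10 without single libraries. It was 9 with replicates 1 and 2 only (Slc2a3 in and Ankrd37 out) and 10 with DESeq2 (Slc16a3 in addition). In endothelial-like cells it was 0 as reported and without single libraries, 4 with DESeq2, 2 with cells kept by UMIs, 6 with the barcode set as a block, 4 with the replicate block and 4 with replicates 1 and 2 only. In the other classes it was 0, 16 with DESeq2, 4 with cells kept by UMIs, 21 with the barcode-set block, 2 with no gene filter, 22 with the replicate block, 3 with replicates 1 and 2 only, and 0 to 1 without single libraries. In Clec4f-negative cells it was 0, 9 with DESeq2, 9 with the barcode-set block, 8 with the replicate block and 4 with replicates 1 and 2 only. In the Trem2 or Gpnmb gate the 2 calls became 0 with cells kept by UMIs and 0 with no replicate block, and in the zone gate the 1 call became 0 with no replicate block. The UMI filter also removed vehicle replicate 3 from the macrophage-like fit.

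Over all genes the macrophage-like count of 1121 became 1689 with the replicate block, 1741 with the barcode-set block, 8 with cells kept by UMIs, 385 with classes per cell, 667 with mixed cells left out, 724 with no gene filter and 1825 without TMM. The endothelial-like count of 49 became 449, 477, 74, 18, 34, 20 and 16 under those settings, 297 with DESeq2, 107 with no cell filter and 352 with replicates 1 and 2 only. The Clec4f-positive count of 882 became 1437, 1507, 6, 759, 531, 635 and 1410. The Clec4f-negative count of 0 became 412 with the replicate block, 427 with the barcode-set block, 444 with DESeq2 and 187 with replicates 1 and 2 only, and the count of 39 over the other classes became 1143, 1003, 581 and 266, with 323 with no gene filter, 101 with cells kept by UMIs, 59 with limma-voom, 16 with classes per cell, 13 with mixed cells left out and 1 to 180 without single libraries. The gate counts of 343 and 85 became 14 and 27 with no replicate block, with cells kept by UMIs and with classes per cell the first was 27 and 604, and with no gene filter the second was 147. Without single libraries the counts over all genes ran from 0 to 1199 in macrophage-like, 1 to 1238 in Clec4f-positive and 0 to 11 in endothelial-like cells.

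Directions turned for Hk2 in macrophage-like cells with cells kept by UMIs (-0.033). For Pfkfb3, near 0 in macrophage-like cells, the value was -0.006 with DESeq2 size factors and with the DESeq2 test, -0.053 with the barcode-set block, -0.045 with classes per cell, -0.019 with no gene filter, -0.049 with the replicate block and between -0.138 and 0.418 without single libraries. Pfkl (0.002) and P4ha1 (0.025) turned with cells kept by UMIs, Eno3 (0.050) and P4ha1 (0.014) with mixed cells left out, Pfkp with classes per cell (0.023) and no cell filter (0.011), and Pgk1 with limma-voom (0.448). With single libraries left out included, 9 members turned in macrophage-like and 8 in Clec4f-positive cells, none of them called. In the Trem2 or Gpnmb gate 18 uncalled members turned in at least 1 setting. Hk3 turned to 0.088 with cells kept by UMIs and 0.393 with classes per cell, and Gpi1 to -0.084 with classes per cell. Adm was lost there and Eno3 and Ddit4 were called with classes per cell. The causes were not tested, apart from the fewer libraries or genes that a setting leaves. The 10 members called in macrophage-like cells kept their direction under every alternative that could be fitted. Beyond the genes and values given, the replicate block changed no other member's call in the macrophage-like, Clec4f-positive and endothelial-like fits. Depth limits Slc2a3, Pfkm, Ldhb, Ddit4 and Ankrd37 among others, with at most 15 UMIs of each in any ginkgetin macrophage-like sum.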

Other observations

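Of the cells that no class name was given to, cluster 29 was led by cell-cycle genes and lay nearest to T cell-like cells, with 48, 24, 101 and 52 cells in vehicle 1 and 2 and ginkgetin 1 and 2. The summed plain CPM of the 34 members was 3798, 4886, 3864 and 2616 there, against 2929, 2902, 2026 and 1697 in T cell-like cells of the same libraries. In 4 of 4 libraries 13 members were higher in the cluster and 3 were lower. Gapdh ranged from 982 to 1961 CPM against 466 to 971 CPM, Ldha from 334 to 573 CPM against 208 to 379.8 CPM, and Tpi1 from 58.9 to 242 CPM against 32.6 to 86.0 CPM. The 3 lower were Slc2a1, Slc2a3 and Aldoc. The genes were not used for clustering, and the comparison is a description without a test.

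Cluster 14, led by Vwf and Edn1 and found in replicates 1 and 2 with 173, 49, 61 and 374 cells, had Ddit4 at 183 to 409 CPM against 32.3 to 68.6 CPM in endothelial-like cells of the same libraries, higher in 4 of 4. Aldoa, Tpi1, Ldha, Hk1 and Egln3 were also higher in 4 of 4. The 8 members lower in 4 of 4 were Adm, Bnip3, Ldhb, P4ha1, Pdk1, Pdk4, Pkm and Slc16a1. Pdk4 ranged from 4.81 to 9.74 CPM against 23.7 to 70.2 CPM. In replicate 3, cluster 18 shared the leading genes Vwf, Adgrg6, Fbln2, Ednrb and Nrg1 with cluster 14, and it was named endothelial-like.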
